A study of Mus musculus with 30 samples.

Results

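The mitochondrial ribosomal protein genes are the nuclear genes for the proteins of the ribosome that works inside mitochondria. They were taken as every gene whose symbol is Mrpl or Mrps followed by a digit, and 5 symbols marked as pseudogenes were left out. This gave 78 genes, all of which had a row in both count tables, of 52630 genes in the time course and 55487 in the passage experiment. By their known place in the ribosome, 51 encode large-subunit proteins and 26 encode small-subunit proteins. The remaining gene, Mrps36, carries a ribosomal name, but its protein is known as a part of the alpha-ketoglutarate dehydrogenase complex. Mrps18a and Mrps30 carry small-subunit names and are counted with the large subunit, where their proteins sit. Of the 77 ribosomal genes, 46 have a bacterial homologue and 31 have no bacterial counterpart at the same place in the ribosome. The 78 genes lie on 17 chromosomes, with 11 genes on chromosome 11, 7 on chromosome 6 and 2 on chromosome 8.

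The mitochondrial ribosome translates the few mRNAs of the mitochondrial genome, all of which encode subunits of the respiratory chain and of ATP synthase. Its proteins are made in the cytosol from nuclear genes and imported, while its rRNAs, mt-Rnr1 and mt-Rnr2, are transcribed from mitochondrial DNA. The large subunit holds the peptidyl transferase centre and the small subunit reads the mRNA, and mitochondrial translation needs both.

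All libraries were made from E14tg2a, a mouse embryonic stem cell (ESC) line, and no gene was edited or targeted. In the time course, ESCs were in Serum/LIF, a serum medium with the cytokine LIF that the labels give as 0 h, or had been moved to Enhanced Metabolic Media (EMM) for 3, 9 or 24 h. EMM is the Serum/LIF medium with galactose in place of glucose and pyruvate. The treatment note also speaks of 24 h in Serum/LIF, so the length of the control culture is open. In the passage experiment, ESCs were cultured in EMM, in Serum/LIF or in 2i/LIF, a medium with LIF and a pair of kinase inhibitors, and collected at passage 10 (P10) or passage 20 (P20). Each of the 4 time-course groups and 6 passage groups had 3 libraries, and every medium held LIF. According to the methods, the libraries of a condition came from separate experiments. The comparisons ask how these genes respond to a forced shift from glycolysis to oxidative phosphorylation, early and after long culture. Library totals were 24074132 to 35301962 counts in the time course and 6944904 to 27912928 in the passage experiment.

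The ESC identity of the libraries was checked with Pou5f1, Nanog, Sox2, Klf4, Esrrb and Zfp42, whose summed normalized count was 104894 to 114074 in the time course. At P10 this sum was 58520 to 65637 in EMM, 42356 to 47123 in Serum/LIF and 48369 to 50250 in 2i/LIF, and at P20 it was 44382 to 45377, 50659 to 54589 and 52111 to 57522. A normalized count is a count scaled to the mean library size of its experiment. The fibroblast markers Col1a1, Col1a2, Thy1, Postn and Lum summed to 2155 to 2567 normalized counts in P10 Serum/LIF and 3472 to 6877 in P20 Serum/LIF, against 284 to 364 in P10 EMM, 130 to 181 in P20 EMM and 44 to 97 in 2i/LIF. Col1a1 made up most of the Serum/LIF sums, at 1565 to 5435, while Lum was at 0 to 2.9 and Postn at 6.9 to 35.04. In the P20 2i/LIF libraries, the genes of chromosomes 6 and 8 stood above their level over all 18 passage libraries, with medians of 0.21 to 0.29 over 746 genes and 0.29 to 0.31 over 833 genes on the log2 scale. In the other 15 passage libraries these medians were between -0.15 and 0.12. Trophectoderm markers summed to 126 to 193 in EMM, 386 to 530 in Serum/LIF and 367 to 420 in 2i/LIF at P10, and to 161 to 168, 321 to 493 and 143 to 253 at P20. Neural markers summed to 1356 to 1597 in EMM, 2788 to 3067 in Serum/LIF and 597 to 965 in 2i/LIF at P10, and to 1935 to 2045, 1814 to 2013 and 2316 to 2838 at P20. Primitive endoderm markers were at 51.4 to 99.2 in all P10 groups, and at P20 summed to 101 to 170 in EMM, 90.3 to 126 in Serum/LIF and 61.1 to 65.1 in 2i/LIF. In the time course, neural markers were at 3719 to 4592 in Serum/LIF and 6178 to 6411 at 3 h, and trophectoderm markers at 398 to 415 in Serum/LIF, 458 to 488 at 3 h and 578 to 607 at 24 h. Primitive endoderm markers were at 150 to 188 in Serum/LIF and 250.3 to 259 at 24 h, and fibroblast markers at 1769 to 1842 and 1213 to 1431. The part of these facts in the comparisons below was not tested. In bulk libraries, fewer cells of a type and less RNA per cell cannot be told apart.

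Windows of 300 bases around the gene start, 250 before and 50 after, were present in RefSeq (GRCm38.p6) for 69 of the 78 genes. The letters CCGGAAG, bound by ETS factors such as Gabpa, were present on either strand in 26 of the 69 genes (37.7%), against 9.93% of 27025 genes with a window. The letters AAGATGGC, bound by Yy1, were present in 12 (17.4%), against 3.19% of all genes. The Nrf1 core GCATGCGC was present in 8 (11.6%, against 3.05%). The E-box CACGTG was present in 5 (7.25%, against 8.09%) and CCAAT in 27 (39.1%, against 41.1%). The comparison group holds every gene with a window, expressed or not. These shares are a description of the letters and of no measured binding.

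The windows of 6 genes are shown, because among called members these had the 3 largest rises and the 3 largest falls at 3 h of EMM. Mrps18b (chr17:35916391-35916690, minus strand), Mrps18a (chr17:46110754-46111053, plus strand) and Mrpl3 (chr9:105053018-105053317, plus strand) rose, and Mrpl24 (chr3:87919294-87919593, plus strand), Mrpl49 (chr19:6057706-6058005, minus strand) and Mrpl55 (chr11:59202236-59202535, plus strand) fell. Capitals mark the matches to the letters searched, read on either strand.
Mrps18b: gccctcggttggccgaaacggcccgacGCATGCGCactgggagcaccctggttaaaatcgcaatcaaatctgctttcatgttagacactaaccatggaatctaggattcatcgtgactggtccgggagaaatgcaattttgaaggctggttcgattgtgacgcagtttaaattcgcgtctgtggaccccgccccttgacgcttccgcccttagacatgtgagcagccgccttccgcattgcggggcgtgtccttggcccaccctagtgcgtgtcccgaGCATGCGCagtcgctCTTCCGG
Mrps18a: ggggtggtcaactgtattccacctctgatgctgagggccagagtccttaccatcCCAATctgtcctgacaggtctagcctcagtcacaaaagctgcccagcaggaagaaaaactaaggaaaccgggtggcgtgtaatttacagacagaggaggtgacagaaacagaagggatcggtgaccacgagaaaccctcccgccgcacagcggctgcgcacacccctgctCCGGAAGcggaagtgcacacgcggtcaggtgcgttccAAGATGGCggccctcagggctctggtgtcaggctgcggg
Mrpl3: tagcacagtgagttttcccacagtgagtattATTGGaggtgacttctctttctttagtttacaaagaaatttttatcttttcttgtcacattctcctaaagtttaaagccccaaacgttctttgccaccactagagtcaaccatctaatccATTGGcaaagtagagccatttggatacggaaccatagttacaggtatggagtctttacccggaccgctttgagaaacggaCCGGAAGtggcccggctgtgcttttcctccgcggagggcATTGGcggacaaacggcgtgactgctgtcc
Mrpl24: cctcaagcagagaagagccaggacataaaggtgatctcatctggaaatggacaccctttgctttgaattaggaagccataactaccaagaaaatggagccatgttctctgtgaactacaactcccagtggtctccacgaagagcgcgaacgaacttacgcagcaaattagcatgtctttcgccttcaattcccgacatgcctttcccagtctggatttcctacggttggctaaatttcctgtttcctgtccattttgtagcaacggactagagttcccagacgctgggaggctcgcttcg
Mrpl49: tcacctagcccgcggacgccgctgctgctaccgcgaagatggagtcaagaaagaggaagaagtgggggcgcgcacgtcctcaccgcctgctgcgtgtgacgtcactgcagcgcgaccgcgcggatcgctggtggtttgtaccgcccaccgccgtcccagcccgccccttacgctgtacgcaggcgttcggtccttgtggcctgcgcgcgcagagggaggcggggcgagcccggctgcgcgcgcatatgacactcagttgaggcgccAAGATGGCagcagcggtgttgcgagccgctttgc
Mrpl55: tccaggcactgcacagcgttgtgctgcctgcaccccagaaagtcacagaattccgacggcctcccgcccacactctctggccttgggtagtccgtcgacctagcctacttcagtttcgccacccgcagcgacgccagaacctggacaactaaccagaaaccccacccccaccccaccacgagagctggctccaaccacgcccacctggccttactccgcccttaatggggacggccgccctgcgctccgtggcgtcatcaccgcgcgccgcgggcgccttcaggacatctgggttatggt
All 3 windows of the risen genes hold CCGGAAG or its reverse complement, and those of Mrpl24 and Mrpl55 hold none of the letters searched. The window of Mrpl49 holds AAGATGGC, and that of Mrpl10, the remaining member that fell, holds GCATGCGC. Over all members called at 3 h, CCGGAAG was present in 4 of the 8 that rose and in 0 of the 4 that fell, and at 24 h in 4 of the 19 fallen members with a window, beside 26 of 69 (37.7%) over all members. No relation between these letters and direction was tested.

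Of the 78 genes, 77 passed the filter on low counts in the time course and all 78 passed in the passage experiment. Mrpl53, for a large-subunit protein, was the gene that did not pass. It had at most 4 counts in any time-course library, but 215 to 470 normalized counts in the 18 passage libraries. It lies on the plus strand of chromosome 6 (chr6:83109040-83109939), and its annotated exons share 695 bases with Gm42688 on the same strand. The part of this overlap in the difference was not tested. Exons of 33 members overlap those of another gene, 28 on the opposite strand and 8 on the same strand, and the strand setting of the counting is not given in the sources used here. Mrpl3, Mrpl10, Mrpl12, Mrpl13, Mrpl19, Mrpl24, Mrpl36, Mrpl43, Mrpl47, Mrpl49, Mrps7, Mrps18b, Mrps25 and Mrps27 are among those that share exon bases with an opposite-strand gene. Mrpl3, Mrpl33, Mrpl51, Mrps6, Mrps18c, Mrps24 and Mrps34 share them with a gene on the same strand, as Mrpl53 does. Mrpl46 and Mrps11, which lie head to head, share 173 exon bases.

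Levels differed widely between members. Per kilobase of exon, the highest mean normalized counts in the time course were those of Mrpl2 (1960), Mrpl34 (1821), Mrpl18 (1677), Mrpl12 (1476) and Mrpl45 (1471), and the median over members was 568. Mrpl2 builds the core of the large subunit near the peptidyl transferase centre, Mrpl12 forms its stalk and Mrpl45 sits at the exit tunnel. In the passage experiment the 5 highest were Mrpl18 (976), Mrpl2 (943), Mrpl12 (936), Mrpl34 (906) and Mrpl28 (775), around a median of 260. Mrpl23, Mrpl33, Mrpl48 and Mrps10 were among the 5 lowest in both experiments, at 46.1 to 121 normalized counts per kilobase. The length used was that of all annotated exons of a gene merged. It was 4883, 7326, 8152 and 8079 bases for these genes, against a median of 2394 over members. For Mrpl2, Mrpl34 and Mrpl12, among the highest, it was 1170, 607 and 1532 bases. The part of this length in the ranks was not tested.

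At 3 h of EMM, 8 members rose and 4 fell at an adjusted p under 0.01, all by little. These are 10.4% and 5.19% of the 77 members tested, against 16.3% of all 16049 genes higher and 18.2% lower. No member passed a 2-fold change as well, which 4.22% of all genes did. The median log2 fold change of the members was -0.05, against -0.01 over all genes tested. With library totals alone as the scaling, falls outnumbered rises at 3 h, and the counts are given at the end.

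The largest rise was that of Mrps18b (ENSMUSG00000024436, chr17:35910379-35916389, minus strand), for a small-subunit protein of the S18 family. Its normalized counts were 1468, 1515 and 1470 in Serum/LIF and 1921, 1835 and 1892 at 3 h. The groups did not overlap, and the log2 fold change was 0.34 ± 0.05 (SE; adjusted p = 1.8e-05). Mrps18a, the S18 paralogue of the large subunit, had 1235, 1177 and 1122 normalized counts in Serum/LIF and 1386, 1479 and 1399 at 3 h, and its log2 fold change was 0.27 ± 0.05 (SE; adjusted p = 0.00027). All 3 EMM libraries lay above all 3 Serum/LIF libraries. The remaining paralogue, Mrps18c, had a log2 fold change of -0.07 ± 0.07 (SE; adjusted p = 0.46). Mrpl3, a core protein of the large subunit, had 2066, 2069 and 1956 normalized counts in Serum/LIF and 2413, 2419 and 2422 at 3 h, and its log2 fold change was 0.25 ± 0.04 (SE). The other 5 members that rose were Mrps25, Mrpl46, Mrps2, Mrpl37 and Mrpl21, with log2 fold changes from 0.20 down to 0.13.

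Among called members, the largest fall at 3 h was that of Mrpl55, with 834, 830 and 799 normalized counts in Serum/LIF and 665, 688 and 629 at 3 h. Its log2 fold change was -0.31 ± 0.05 (SE; adjusted p = 0.0001). Mrpl49 (-0.27), Mrpl24 (-0.20) and Mrpl10 (-0.15) fell as well, and in each of these genes the groups did not overlap. The count of 8 rises was smaller when some single libraries were left out, at 5 without Serum/LIF replicate 1, 4 without Serum/LIF replicate 3, 3 without EMM 3 h replicate 1, 3 without replicate 2 and 4 without replicate 3. The count of 4 falls was 2 without Serum/LIF replicate 2.

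**Figure D1:**
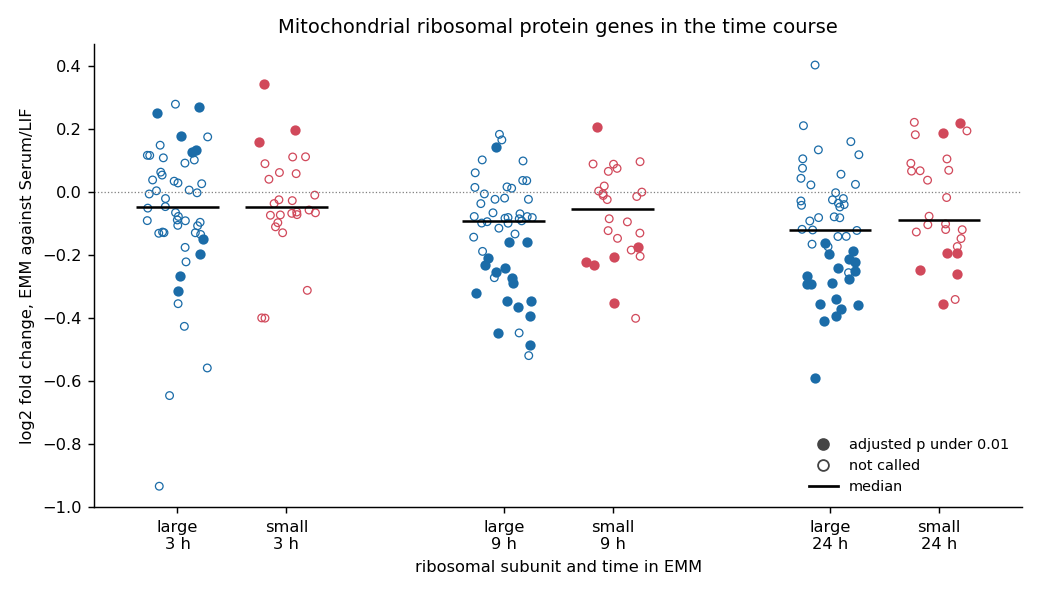
The y axis gives the log2 fold change of each large-subunit and small-subunit gene in EMM against Serum/LIF at 3, 9 and 24 h, with filled points for an adjusted p under 0.01 and a black line for the median of each set. Filled points lie on both sides of 0 at 3 h and mostly below 0 at 9 and 24 h.

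At 9 and 24 h, the members that changed were mostly lower. At 9 h, 20 of 77 fell (25.97%, against 19.7% of all genes) and 2 rose (2.60%, against 18.5%). At 24 h, 24 fell (31.2%, against 22.2%) and 2 rose (2.60%, against 21.8%). No member passed a 2-fold change at either time, which 5.55% and 8.18% of all genes did. The median log2 fold change was -0.08 at 9 h and -0.10 at 24 h, and 54 of 77 members had a negative value at 24 h. Without 1 library the 9 h falls numbered 13 (without Serum/LIF replicate 2) or 12 (without EMM 9 h replicate 1), and the 24 h rises numbered 6 without EMM 24 h replicate 1 and 1 without replicate 3. The 2 rises at 9 h became 1 without Serum/LIF replicate 3, EMM 9 h replicate 1 or EMM 9 h replicate 2.

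Mrpl13 (ENSMUSG00000022370, chr15:55534094-55557748, minus strand), for a large-subunit protein with a bacterial homologue, fell most at 24 h. Its normalized counts were 1913, 1941 and 1942 in Serum/LIF, 1761, 1823 and 1860 at 3 h, 1300, 1412 and 1430 at 9 h, and 1211, 1373 and 1269 at 24 h. The 9 and 24 h libraries all lay below the Serum/LIF and 3 h libraries. The log2 fold change was -0.49 ± 0.05 (SE) at 9 h and -0.59 ± 0.05 (SE; adjusted p = 1.7e-07) at 24 h, a level of 0.665 times that of Serum/LIF. Mrpl24 had 2151, 2213 and 2050 normalized counts in Serum/LIF, 1861, 1883 and 1858 at 3 h, 1718, 1580 and 1582 at 9 h, and 1583, 1596 and 1652 at 24 h. Its fall already passed the test at 3 h, and it reached -0.41 ± 0.04 (SE) at 24 h.

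Mrpl35 (-0.39), Mrpl15 (-0.37), Mrpl17 (-0.36), Mrps27 (-0.35), Mrpl47 (-0.35), Mrpl51 (-0.34), Mrpl40 (-0.29) and Mrpl1 (-0.29) made up the rest of the 10 largest log2 falls of called members at 24 h. Mrpl12, the stalk protein, had 2446, 2537 and 2211 normalized counts in Serum/LIF and 1992, 2035 and 1869 at 24 h, which is -0.29 ± 0.05 (SE) on the log2 scale. Mrpl45, at the tunnel exit, fell by 0.22 on the log2 scale. The members that rose at 24 h were the small-subunit genes Mrps21 (0.22) and Mrps2 (0.19). Mrps2 had 3209, 3309 and 3082 normalized counts in Serum/LIF and 3727, 3685 and 3515 at 24 h. Mrps30, which sits in the large subunit, and Mrps36 did not pass the test at any time, with log2 fold changes of -0.07 to 0.01 and 0.02 to 0.12.

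The 24 h falls were counted by subunit. Of 50 large-subunit genes tested, 19 fell and 0 rose, and of 26 small-subunit genes, 5 fell and 2 rose. The medians were -0.12 and -0.09 on the log2 scale. Genes with a bacterial homologue had 15 falls among 46, and the mitochondria-specific genes had 9 among 30. No test of a difference between these sets was made.

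Against 3 h of EMM, 27 members were lower at 24 h (35.1%, against 19.2% of all genes) and 3 were higher (3.896%, against 20.8%). Of the 8 members that had risen at 3 h, 7 were lower again at 24 h than at 3 h (Mrps18b, Mrps18a, Mrpl3, Mrps25, Mrpl46, Mrpl37 and Mrpl21), and the remaining gene, Mrps2, was still above Serum/LIF. As both comparisons use the 3 h libraries, this count is a description. Of 32 members whose exons overlap another gene, 17 were lower (53.1%), with a median log2 fold change of -0.21, and of 45 without overlap, 10 were (22.2%), with a median of -0.05. The part of the overlap in these values was not tested. Mrps18b went from 1921, 1835 and 1892 normalized counts at 3 h to 1556, 1649 and 1470 at 24 h. The 3 rises were those of Mrpl57 (1.05), Mrpl49 (0.24) and Mrpl36 (0.21), and their number was 7 without EMM 24 h replicate 1 and 1 without EMM 3 h replicate 1, EMM 3 h replicate 3, EMM 24 h replicate 2 or EMM 24 h replicate 3.

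**Figure D2:**
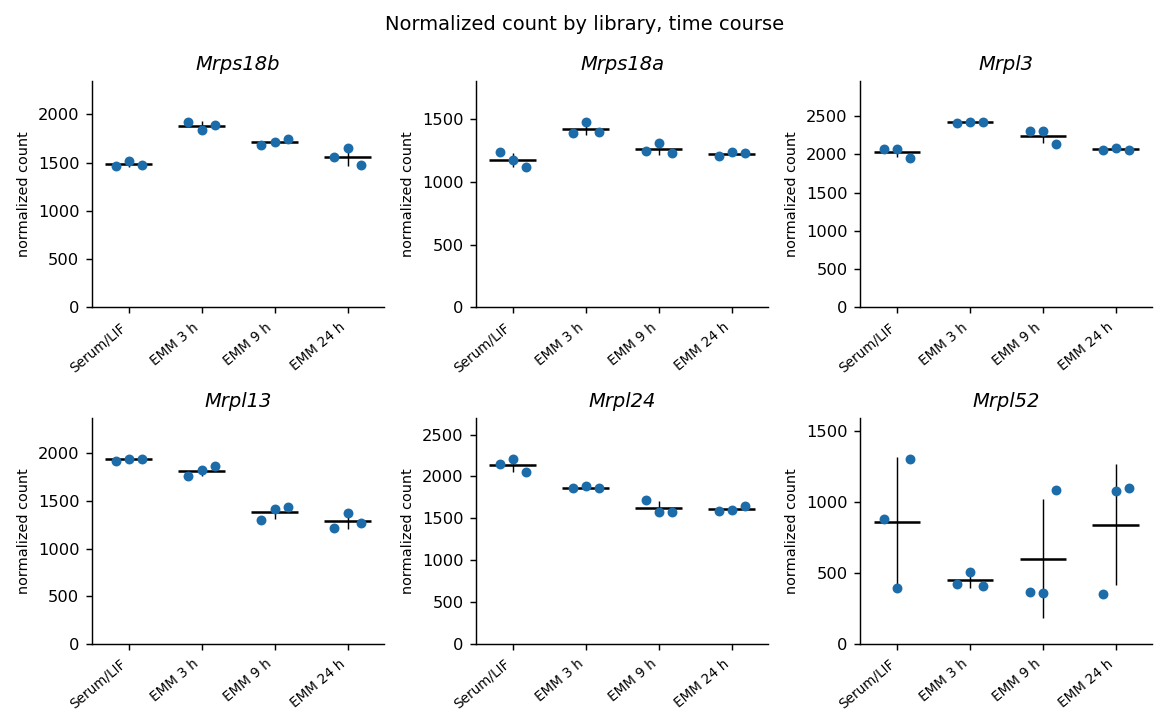
The y axes give the normalized count of 6 members in the 12 time-course libraries, with a point per library, the mean as a bar and the SD as a line. Mrps18b, Mrps18a and Mrpl3 are highest at 3 h, Mrpl13 and Mrpl24 are lowest at 24 h, and Mrpl52 splits within the Serum/LIF, 9 h and 24 h groups.

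A set of members varied widely between libraries of the same group. The pooled within-group SD was above 0.2 on the log2 scale for 12 members (Mrps34, Mrps24, Mrpl28, Mrps10, Mrpl2, Mrps12, Mrpl14, Mrps11, Mrpl57, Mrpl34, Mrpl54 and Mrpl52), at 0.22 to 0.79, and had a median of 0.06 over the other 65. Mrpl52 had 884, 394 and 1308 normalized counts in Serum/LIF, 425, 508 and 414 at 3 h, 367, 358 and 1085 at 9 h, and 351, 1081 and 1099 at 24 h. Its high and low libraries were far apart in every group except 3 h. All 12 genes lay above their group mean in Serum/LIF replicate 3, EMM 9 h replicate 3 and EMM 24 h replicates 2 and 3, and all 12 lay below it in Serum/LIF replicate 2, EMM 9 h replicates 1 and 2 and EMM 24 h replicate 1. At 3 h all 12 were above it in replicate 2 and below it in replicate 1, by medians of 0.13 and -0.06 on the log2 scale. Their exons have a median length of 1275 bases, against 2703 bases for the other 65.

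Of these 12 genes, Mrpl57 was called in the comparison of 24 h with 3 h, and no other was called in the time course. Mrpl57 had 381, 469 and 420 normalized counts at 3 h and 484, 1041 and 1109 at 24 h, and its log2 fold change was 1.05 ± 0.29 (SE; adjusted p = 0.0067). The groups do not overlap, but its counts in Serum/LIF ran from 472 to 899. The largest 3 h difference among all members, -0.93 ± 0.48 (SE; adjusted p = 0.12) for Mrpl52, did not pass the test.

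In the passage experiment, EMM was first set against Serum/LIF. At P10, 10 members were higher in EMM (12.8%, against 18.7% of all 16054 genes) and 1 was lower (1.28%, against 18.7%). At P20, 0 were higher (against 13.6% of all genes) and 10 were lower (12.8%, against 12.5%). At an unadjusted p under 0.05 in edgeR's test 1 member, Mrps2, was higher at P20, and DESeq2's test also called 0 at an adjusted p under 0.01. No member passed a 2-fold change at either passage, which 17.1% and 9.63% of all genes did. The median log2 fold change of the members was 0.07 at P10 and -0.12 at P20, against 0.01 and -0.000358 over all genes. Fibroblast markers differed between these media at both passages, as given above, and their part in these values was not tested.

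The largest rise at P10 was that of Mrpl41 (ENSMUSG00000036850, chr2:24974117-24975098, minus strand), for a large-subunit protein without a bacterial counterpart. It had 200, 190 and 201 normalized counts in Serum/LIF and 276, 376 and 325 in EMM, with a log2 fold change of 0.72 ± 0.16 (SE; adjusted p = 0.0013). Mrpl33 (0.62), Mrps34 (0.52), Mrps14 (0.50), Mrpl50 (0.46), Mrpl43 (0.44), Mrps2 (0.41), Mrpl2 (0.35), Mrps31 (0.28) and Mrpl49 (0.26) were also higher, and Mrpl10, a protein of the stalk base, was lower (-0.31). The fall of Mrpl10 was not called without EMM replicate 1, Serum/LIF replicate 1 or Serum/LIF replicate 3. The count of 10 was 6 without EMM replicate 2, EMM replicate 3, Serum/LIF replicate 2 or Serum/LIF replicate 3. With library totals alone as the scaling, 6 were higher and 5 lower, and the median of all genes moved from 0.01 to -0.09 and that of the members from 0.07 to -0.03.

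The largest fall at P20 was that of Mrps6 (ENSMUSG00000039680, chr16:92058270-92112227, plus strand), for a small-subunit protein with a bacterial homologue. It had 328, 255 and 293 normalized counts in Serum/LIF and 164, 150 and 149 in EMM, without overlap, and a log2 fold change of -0.92 ± 0.13 (SE; adjusted p = 1.7e-05). Its exons share 305 bases with Gm49711 and 159 bases with Slc5a3 on the same strand, and the part of this in the fall was not tested. Mrps16 followed with 576, 489 and 514 against 388, 350 and 346 normalized counts, a log2 fold change of -0.54 ± 0.10 (SE). Mrpl36 (-0.49), Mrpl40 (-0.47), Mrpl24 (-0.45), Mrpl10 (-0.43), Mrps7 (-0.43), Mrpl35 (-0.42), Mrpl1 (-0.41) and Mrps17 (-0.32) were also lower. Mrpl10 and Mrps7 lie on chromosome 11, whose 1251 genes had log2 medians of -0.13 in this comparison and -0.097 at P10. The part of this in their values was not tested. The count of 10 was 6 without EMM replicate 1, 5 without EMM replicate 3, 4 without Serum/LIF replicate 1 and 6 without Serum/LIF replicate 3. It was 20 with library totals alone, 19 with DESeq2's Wald test and 18 without the 3 shallowest libraries.

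The time course and the passage experiment share no library. Of the 10 members lower at P20, 7 were also lower at 24 h of EMM (Mrpl1, Mrpl10, Mrpl24, Mrpl35, Mrpl40, Mrps7 and Mrps16), which is 70.0% of the P20 list and 29.2% of the 24 of the 24 h list. Over all 14652 genes tested in both experiments, 989 were lower in both, which is 54.2% of those lower at P20 and 28.4% of those lower at 24 h. Mrps2 was higher both at 24 h and at P10, and Mrpl10 was lower in all of 3, 9 and 24 h, P10 and P20 of EMM against Serum/LIF. Mrpl10 had 2462, 2427 and 2362 normalized counts in Serum/LIF and 2037, 2006 and 1985 at 24 h of the time course, and 1173, 1274 and 1261 against 893, 928 and 931 at P20.

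The difference between passages was tested as an interaction, the P20 log2 fold change of EMM against Serum/LIF less that at P10. It was called for 2 members, both more negative at P20 (2.56%, against 6.43% of all genes), and for 0 in the positive direction (against 8.28%), where 1 member had an unadjusted p under 0.05 and DESeq2 called 0. Mrps6 differed by -0.93 ± 0.18 (SE; adjusted p = 0.00085). In EMM it had 268, 271 and 332 normalized counts at P10 and 164, 150 and 149 at P20, while in Serum/LIF it had 273 to 307 at P10 and 255 to 328 at P20. Mrpl43, of the large subunit, differed by -0.70 ± 0.12 (SE; adjusted p = 0.00039). It had 759, 818 and 799 normalized counts in P10 EMM and 500, 516 and 499 in P20 EMM, against 531 to 610 and 598 to 611 in Serum/LIF.

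**Figure D3:**
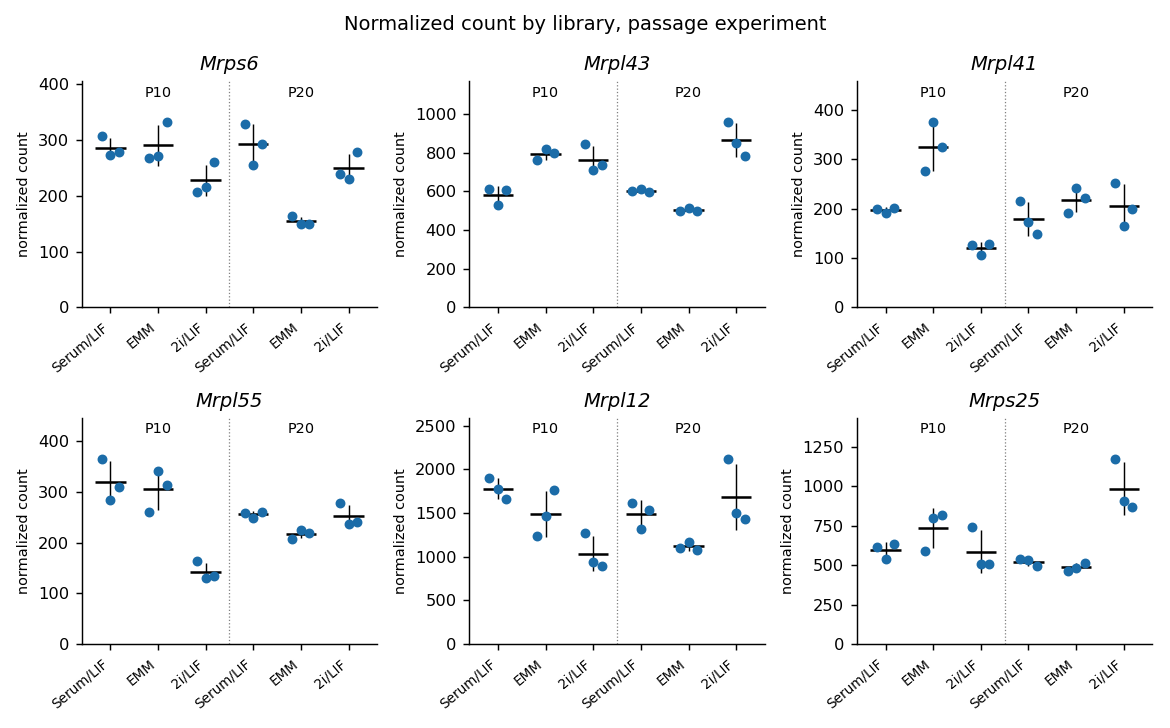
The y axes give the normalized count of 6 members in the 18 passage libraries, with a point per library, the mean as a bar and the SD as a line, P10 on the left and P20 on the right of each panel. Mrps6 and Mrpl43 are lower in P20 EMM than in P10 EMM, and Mrpl55 and Mrpl41 are lowest in P10 2i/LIF.

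EMM was then set against 2i/LIF, and the members that differed were mostly higher in EMM at P10 and lower in EMM at P20. At P10, 30 members were higher in EMM (38.5%, against 22.9% of all genes) and 1 was lower (1.28%, against 22.2%). At P20, 0 were higher (against 25.7%) and 24 were lower (30.8%, against 22.9%). At an unadjusted p under 0.05 in the same edgeR test 5 members were higher at P20, and DESeq2 called 0 at an adjusted p under 0.01. A 2-fold change was passed by 2 members at P10, both higher (2.56%, against 11% of all genes), and by 2 at P20, both lower (2.56%, against 9.39%). Without P20 2i/LIF replicate 1 or without the 3 shallowest libraries the count at P20 was 0, and without EMM replicate 1 or 2 it was 1. It was also 1 with library totals alone, without the filter on low counts or with at least 10 counts in every library. Without P20 2i/LIF replicate 2 it was 3, and without P10 EMM replicate 2 the count at P10 was 1. The median log2 fold change of the members was 0.33 at P10 and -0.20 at P20, against 0.01 and 0.02 over all genes. The summed ESC markers, given above, were also highest in EMM at P10 and lowest in EMM at P20, and their part in these values was not tested.

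At P10, Mrpl41 had 126, 106 and 129 normalized counts in 2i/LIF and 276, 376 and 325 in EMM, a log2 fold change of 1.42 ± 0.17 (SE; adjusted p = 1.3e-06). Mrpl55 (ENSMUSG00000036860, chr11:59202486-59206134, plus strand), for a large-subunit protein, had 163, 131 and 134 in 2i/LIF and 260, 341 and 314 in EMM, a log2 fold change of 1.09 ± 0.13 (SE; adjusted p = 1.3e-06). Mrpl2 had 822, 774 and 708 in 2i/LIF and 1305, 1386 and 1587 in EMM, a log2 fold change of 0.89 ± 0.10 (SE). In all 3 genes the groups stood clear of each other. Mrpl33 (0.74), Mrps18a (0.72), Mrpl11 (0.72), Mrpl57 (0.65), Mrps28 (0.61), Mrps34 (0.60) and Mrpl48 (0.58) came next among called members without overlap. Mrpl12, Mrpl18, Mrpl28 and Mrpl51 were called although their groups overlapped. Mrps9 was the member that was lower, with 998, 990 and 999 normalized counts in 2i/LIF and 804, 789 and 797 in EMM, and it was not called with any single library of the 2 groups left out. Of 51 large-subunit genes 23 were higher (45.1%), and of 26 small-subunit genes 7 were (26.9%), against 22.9% of all genes. The count of 30 was 19 without 2i/LIF replicate 2, and 38 without the 3 shallowest libraries.

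At P20, Mrpl52 had 888, 440 and 487 normalized counts in 2i/LIF and 261, 283 and 289 in EMM, a log2 fold change of -1.09 ± 0.25 (SE; adjusted p = 0.00097). Mrps25 (ENSMUSG00000014551, chr6:92169525-92184033, minus strand), for a small-subunit protein, had 1175, 907 and 871 in 2i/LIF and 463, 480 and 516 in EMM, a log2 fold change of -1.005 ± 0.15 (SE; adjusted p = 1.3e-05). Both are among the 21 members with a within-group SD above 0.2 on the log2 scale in this experiment, and without 2i/LIF replicate 1 their log2 fold changes were -0.74 and -0.87. Of the 6576 exon bases of Mrps25, 4590 are shared with Nr2c2 on the opposite strand, and the part of this in its fall was not tested. Mrps16 (-0.91), Mrpl51 (-0.90), Mrpl19 (-0.84), Mrpl34 (-0.77), Mrpl43 (-0.77), Mrpl33 (-0.71), Mrps6 (-0.70) and Mrpl36 (-0.66) followed. Of the 9 members on chromosomes 6 and 8, 6 were lower, with a median log2 fold change of -0.60, beside whole-chromosome medians of -0.34 and -0.29. Of the 69 members elsewhere, 18 were lower, with a median of -0.20.

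The interaction of passage with EMM against 2i/LIF was called for 44 members in the direction of a lower value at P20 (56.4%, against 15.4% of all genes) and for 0 in the other direction (against 16.9%), where 0 members had an unadjusted p under 0.05 and DESeq2 called 0. Their number was 32 to 49 with any single library left out and 49 without the 3 shallowest libraries, and it was 41 with a replicate block. Of the 69 members off chromosomes 6 and 8, 37 were called. The median over all members was -0.56 on the log2 scale, against 0.06 over all genes. A difference above 2-fold in this direction was reached by 11 members (14.1%, against 6.3% of all genes). They were Mrpl51 (-1.64), Mrpl33 (-1.44), Mrpl34 (-1.40), Mrps25 (-1.33), Mrpl41 (-1.30), Mrpl52 (-1.30), Mrpl55 (-1.29), Mrpl12 (-1.10), Mrpl11 (-1.05), Mrpl19 (-1.04) and Mrps6 (-1.03). Of these 11, 9 were among the 21 members whose within-group SD was above 0.2 on the log2 scale in the passage experiment, Mrpl55 and Mrps6 being the others. In replicate 1 of P10 2i/LIF and in replicate 1 of P20 2i/LIF, 17 of the 21 lay above their group mean, with median deviations of 0.25 and 0.32. The count of 11 was 6 without P10 EMM replicate 3 and 7 without P20 2i/LIF replicate 1, where Mrpl52, Mrpl11, Mrpl19 and Mrpl12 were no longer past the fold or the test. Mrpl52 was also lost without P10 2i/LIF replicate 2 or 3, P10 EMM replicate 2 or 3, or any single P20 EMM library. Of 33 members with exon overlap 23 were called (69.7%), and of 45 without it 21 were (46.7%). This contrast was chosen after the 2 passages had been seen to differ in sign.

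**Figure D4:**
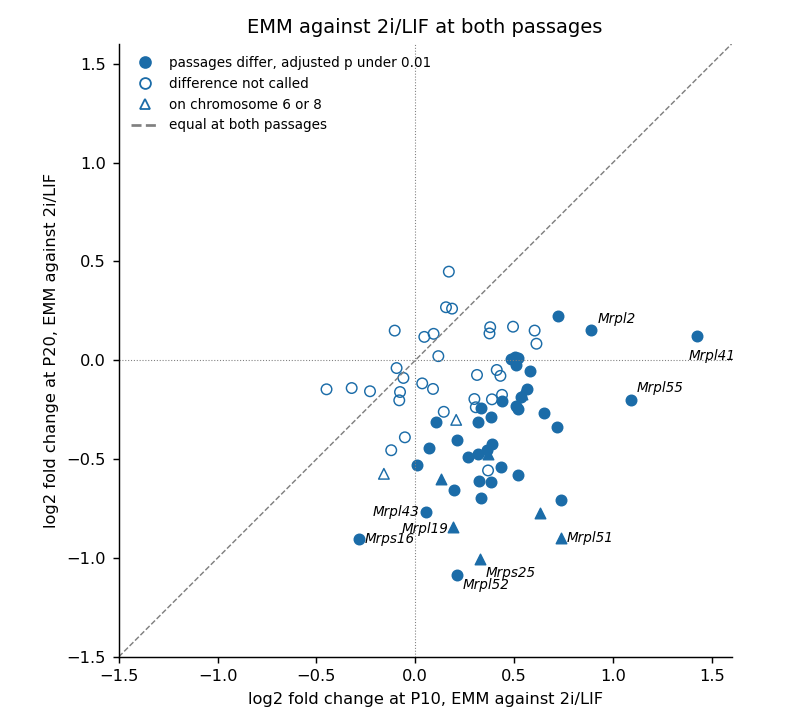
The x axis gives the log2 fold change of each of the 78 genes in EMM against 2i/LIF at P10 and the y axis that at P20, with filled points where the passages differ at an adjusted p under 0.01, triangles for chromosomes 6 and 8, and a dashed line for equal values. All 44 filled points lie below the line, with Mrpl41, Mrpl55 and Mrpl2 far to the right, and Mrpl52 and Mrps25 at the bottom.

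Both media enter this interaction. For Mrpl12, the stalk protein, the normalized counts were 1267, 940 and 898 in P10 2i/LIF and 2124, 1507 and 1431 in P20 2i/LIF, and 1237, 1464 and 1768 in P10 EMM and 1102, 1174 and 1082 in P20 EMM. It was higher at P20 in 2i/LIF and lower at P20 in EMM, with overlap in neither medium. Mrpl55 had 131 to 163 normalized counts in P10 2i/LIF and 236 to 277 in P20 2i/LIF, and 260 to 341 in P10 EMM and 207 to 225 in P20 EMM. No test of P20 against P10 within a medium was made.

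2i/LIF against Serum/LIF shows where the 2i/LIF cultures stood. At P10, 24 members were lower in 2i/LIF (30.8%, against 25.6% of all genes) and 2 were higher (2.56%, against 26.4%). At P20, 13 were higher (16.7%, against 21% of all genes) and 4 were lower (5.13%, against 23.2%). At P10 the largest fall was that of Mrpl55, from 366, 284 and 310 normalized counts in Serum/LIF to 163, 131 and 134, a log2 fold change of -1.17 ± 0.13 (SE; adjusted p = 3.3e-07). Mrpl11 (-0.81), Mrpl12 (-0.79), Mrpl41 (-0.71) and Mrpl13 (-0.67) were next. Mrps2 (0.53) and Mrpl43 (0.39) were the higher members. At P20 the largest rises among called members were those of Mrps25 (0.90), Mrpl51 (0.75), Mrpl19 (0.72) and Mrpl53 (0.69), all encoded on chromosome 6, where the median over 746 genes was 0.33 on the log2 scale in this comparison. Of the 9 members on chromosomes 6 and 8, 5 were higher, and of the 69 elsewhere, 8 were. Mrps2, on chromosome 2, rose by 0.65 ± 0.07 (SE). The count of 13 was 7 without 2i/LIF replicate 1, 6 without Serum/LIF replicate 2 and 8 without Serum/LIF replicate 3. The count of 4 was 2 without 2i/LIF replicate 2, 2i/LIF replicate 3 or any of the 3 Serum/LIF libraries.

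The share of all counts taken by the 78 genes together was also compared. It was 0.415% to 0.434% in Serum/LIF, 0.394% to 0.405% at 3 h, 0.376% to 0.405% at 9 h and 0.362% to 0.407% at 24 h of EMM, so the Serum/LIF libraries lay above all EMM libraries. In the passage experiment it was 0.375% to 0.393% in Serum/LIF, 0.357% to 0.386% in EMM and 0.299% to 0.343% in 2i/LIF at P10. At P20 it was 0.375% to 0.419% in Serum/LIF, 0.326% to 0.345% in EMM and 0.381% to 0.410% in 2i/LIF. The lowest group was 2i/LIF at P10 and EMM at P20, and neither overlapped the other media of its passage. With 3 libraries a group, an exact two-sided permutation test cannot go below a p of 0.1, and none was run. In each of the 3 groups that hold the 3 shallowest libraries, the shallowest library had the highest share.

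**Figure D5:**
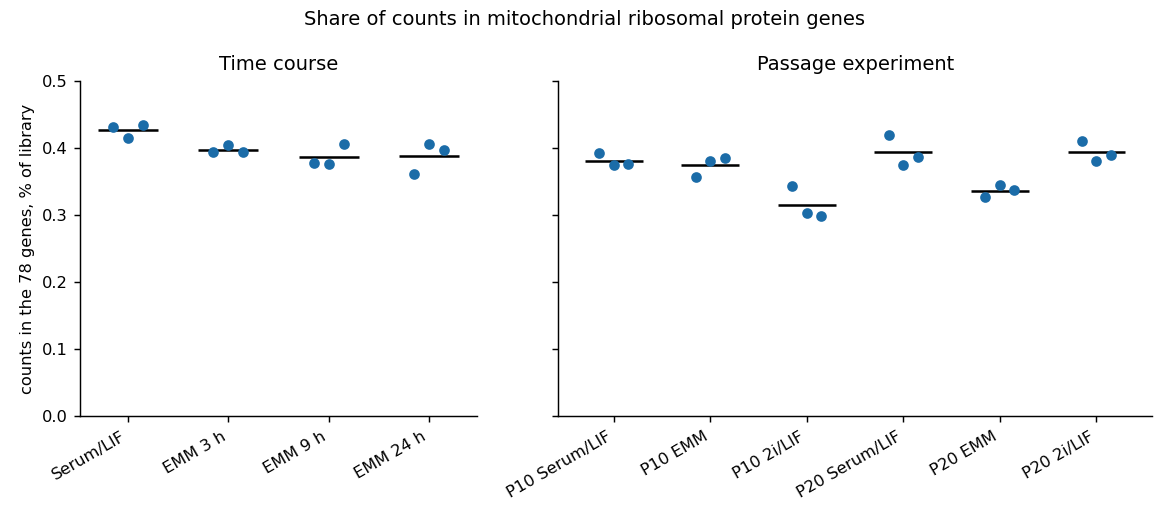
The y axis gives the counts in the 78 genes as a percentage of all counts of a library, with a point per library and a bar for the group mean, for the time course and the passage experiment. The 3 P10 2i/LIF libraries and the 3 P20 EMM libraries lie below the other libraries of their passage.

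Other parts of mitochondrial translation were read from the same fits. The background at 24 h of EMM was 21.8% of all genes higher and 22.2% lower. Of the 5 ribosomal proteins with other names (Dap3, Ptcd3, Chchd1, Aurkaip1 and Gadd45gip1), 2 fell at 24 h. Ptcd3 had 5860, 6027 and 6073 normalized counts in Serum/LIF and 4540, 4777 and 4559 at 24 h, with a log2 difference of -0.37 ± 0.04 (SE). Dap3 had 4045, 4080 and 3903 in Serum/LIF and 3575, 3292 and 3367 at 24 h, with a log2 difference of -0.23 ± 0.04 (SE). Of 17 mitochondrial aminoacyl-tRNA synthetases listed, 16 were tested in the time course, and 2 were higher and 6 lower at 24 h. Of 12 translation factors, 0 were higher and 3 lower. Of 30 assembly and rRNA modification factors listed, 30 were tested, and 4 were higher and 7 lower.

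The mitochondrial rRNAs and the cytosolic ribosome were read as well. mt-Rnr1, the small-subunit rRNA, had 21266, 6960 and 7001 normalized counts in Serum/LIF and 5368, 6320 and 5659 at 24 h, and mt-Rnr2 had 58406, 23432 and 27541 against 22340, 27410 and 25529. In both, Serum/LIF replicate 1 stood far above its group. mt-Rnr1 was called at 24 h, with a log2 fold change of -1.02 ± 0.30 (SE; adjusted p = 0.0094), which was -0.26 (adjusted p = 0.0065) without that library and was not called without any 1 of the 24 h libraries (adjusted p = 0.021 to 0.033). mt-Rnr2 was not called (-0.54, adjusted p = 0.067), but was -0.76 (adjusted p = 0.008) without Serum/LIF replicate 2 and -0.01 without replicate 1. In P10 EMM against Serum/LIF both were higher, mt-Rnr1 by 1.12 ± 0.17 (SE) and mt-Rnr2 by 0.66 ± 0.10 (SE) on the log2 scale. At P20 neither was called (-0.23 and 0.03), and the difference between passages was called for both, at -1.35 ± 0.24 (SE) for mt-Rnr1 and -0.63 ± 0.14 (SE) for mt-Rnr2. As rRNA was depleted before sequencing, these values depend on the depletion as well as on the rRNA. Of 85 cytosolic ribosomal protein genes tested, 45 were higher and 5 lower at 24 h of EMM (background 21.8% and 22.2%), with a median log2 fold change of 0.18. In EMM against Serum/LIF at P20, 24 were higher and 2 lower (background 13.6% and 12.5%), with a median of 0.30. Of the 13 mitochondrial mRNAs, 7 were tested in the time course, and 4 were higher and 0 lower at 24 h, with a median of 0.34. In P10 EMM against 2i/LIF all 13 were tested, and 0 were higher and 5 lower (background 22.9% and 22.2%), with a median of -1.03. All genes of the mitochondrial genome together took 1.47%, 3.35% and 3.39% of counts in P10 2i/LIF. They took 1.88%, 1.27% and 0.85% in P10 EMM, so 2i/LIF replicate 1 lay within the EMM range. In the same comparison mt-Rnr1 was higher by 1.44 ± 0.17 (SE) on the log2 scale and mt-Rnr2 was not called (-0.19, adjusted p = 0.10). At P20 mt-Rnr2 was lower in EMM than in 2i/LIF (-0.91 ± 0.10, SE) and mt-Rnr1 was not called (-0.26). The value of mt-Rnr1 was -0.49 (adjusted p = 0.0027) without P20 2i/LIF replicate 2 and 0.07 (adjusted p = 0.62) without replicate 1. The difference between passages against 2i/LIF was called for both, at -1.70 ± 0.24 (SE) for mt-Rnr1 and -0.72 ± 0.14 (SE) for mt-Rnr2.

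Regulators known to act on nuclear genes for mitochondrial proteins were also read. Of 12 tested in the time course, 2 were higher and 6 lower at 24 h of EMM (background 21.8% and 22.2%). Ppargc1b, a coactivator of mitochondrial genes, rose by 1.65 ± 0.08 (SE) at 3 h and was still 0.70 ± 0.08 (SE) above Serum/LIF at 24 h on the log2 scale. Nrf1 rose by 0.21 ± 0.04 (SE) at 3 h, and Myc fell by 0.48 ± 0.05 (SE) at 3 h. Mycn, a paralogue of Myc, had log2 fold changes of -1.01 ± 0.04 (SE) at 3 h, -1.51 ± 0.04 (SE) at 24 h and -2.44 ± 0.11 (SE) in P10 EMM against Serum/LIF, the largest falls of the list. Tfam, which binds mitochondrial DNA, had a log2 fold change of -0.20 ± 0.04 (SE) at 24 h. In P10 EMM against 2i/LIF, Myc was higher by 3.26 ± 0.14 (SE) and Tfam by 0.62 ± 0.11 (SE).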

How the data were processed

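RNA-seq of E14tg2a ESCs was analysed from 2 deposited tables. The time-course table (12 libraries) holds whole read counts per gene as the authors made them, and the passage table (18 libraries) holds expected counts, which the authors deposited with 9.98% of values not whole and which were rounded here. Submitters' processing notes name STAR, featureCounts, Salmon, DESeq2 and mm10, and the study's methods name HTSeq for counting. Versions and the strand setting are not given in the sources used here. The methods also describe counting over introns and exons and do not say which the time-course table holds. Reads that fit several genes alike, as between paralogues or pseudogene copies, could be split differently by these tools. Ribosomal RNA was depleted before library preparation.

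Each table was fitted as a whole with edgeR 4.0.16 (R 4.3.3, limma 3.58.1): filterByExpr by group, TMM scaling, 1 quasi-likelihood model over all groups of the experiment, and Benjamini-Hochberg adjustment over all 16049 or 16054 genes tested. Genes with an adjusted p under 0.01 were called. Normalized counts are counts scaled by the effective library size. Exon lengths and coordinates came from GENCODE M21 (GRCm38, the same assembly as mm10) and promoter windows from RefSeq. The scripts were tested on simulated counts with known changes. Library totals were 24074132 to 35301962 in the time course and 6944904 to 27912928 in the passage experiment.

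The members and lists were chosen with earlier results of these data known. Members named in each comparison are up to 10 rises and 10 falls, the largest by log2 fold change among called members whose groups did not overlap. The highest and lowest members by level, the Mrps18 paralogues, Mrps30, Mrps36, Mrpl12, Mrpl45 and members that failed the filter were added. Members given for their within-group spread, and those called with overlapping groups, were chosen after their values were seen. Deviations of same-numbered libraries correlated at -0.134 to 0.207 by the title numbers and -0.132 to 0.280 by the description numbers in the time course, and at -0.212 to 0.299 in the passage experiment. The 3 pairs of P10 and P20 2i/LIF, which both enter the difference between passages against 2i/LIF, were all above 0.1 (0.134 to 0.299), and pairs of the other groups in that contrast were not. The fit holds no block, and the blocked count is given beside that result. DESeq2 1.42.0, other scalings and filters, a replicate block and the omission of single libraries were tried as alternatives. The test of the difference between passages for EMM against 2i/LIF, the fit without the 3 shallowest libraries and the omission of single libraries for the mitochondrial rRNAs were added after seeing the data.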

Additional observations from a re-analysis of the deposited data

Results flagged for a closer look

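The difference between passages itself passed the test for the following results. In EMM against Serum/LIF it was called for 2 members, both lower at P20 (2.56%, against 6.43% of all genes), with values of -0.93 on the log2 scale for Mrps6 and -0.70 for Mrpl43. In EMM against 2i/LIF it was called for 44 members, all lower at P20 (56.4%, against 15.4%). Of these, 11 differed by more than 2-fold (14.1% of members, against 6.3% of all genes; 6 without P10 EMM replicate 3 and 7 without P20 2i/LIF replicate 1), with log2 values of -1.64 for Mrpl51, -1.44 for Mrpl33, -1.40 for Mrpl34, -1.33 for Mrps25, -1.30 for Mrpl41, -1.30 for Mrpl52, -1.29 for Mrpl55, -1.10 for Mrpl12, -1.05 for Mrpl11, -1.04 for Mrpl19 and -1.03 for Mrps6. Mrpl51, Mrps25, Mrpl19 and Mrpl34 lie on chromosomes 6 and 8, whose genes stood high in the P20 2i/LIF libraries, and the part of this in their values was not tested. The other 7 lie elsewhere. Of the 11, 9 were among the 21 members with a within-group SD above 0.2 on the log2 scale. Mrpl52 was lost from the 11 when most single libraries were left out, as given above. Without the 3 shallowest libraries the 44 became 49. The contrast against 2i/LIF was chosen after the passages had been seen to differ in sign.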

How the results depend on the processing

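Of the counts of members called, 291 alternative values stayed within 1.5 times the reported count and 81 did not. The 291 include counts of 0 that stayed at 0, as for rises in P20 EMM against Serum/LIF. Of the members' median log2 fold changes, 126 values moved by less than the spread between libraries and 6 by more. With library totals these were -0.11 at 3 h, -0.05 from 3 h to 24 h, -0.03 for P10 EMM and -0.06 for P20 2i/LIF against Serum/LIF, the last 2 of which had been above 0. The 24 h median was -0.05 without EMM 24 h replicate 1 and -0.15 without replicate 2. For rises and falls at 3 h, library totals alone as the scaling gave 3 and 11, and no filter on low counts gave 11 falls. Rises at 9 h numbered 1 with library totals, with a replicate block by the description numbers and in a fit of only the 2 groups. Rises at 24 h numbered 6 without the filter, 1 with that block and 1 in the 2-group fit. Rises from 3 h to 24 h numbered 5 with library totals and 9 without the filter. For P10 EMM against Serum/LIF, rises numbered 6 both with library totals and with a minimum of 10 counts per library, and falls numbered 2 with DESeq2 size factors, 5 with library totals, 6 without the filter, 4 with at least 10 counts, 2 with DESeq2's Wald test, 2 in the 2-group fit and 4 without the 3 shallowest libraries. The corresponding falls at P20 numbered 20 with library totals, 19 with at least 10 counts, 19 with the Wald test, 20 in the 2-group fit and 18 without the 3 shallowest libraries. For EMM against 2i/LIF, falls at P10 numbered 2 with library totals and 0 without the filter, and rises at P20 numbered 1 without the filter, 1 in the 2-group fit and 1 without the 3 shallowest libraries. For 2i/LIF against Serum/LIF, rises at P10 numbered 1 without the filter and 1 in the 2-group fit. At P20, rises numbered 8 with library totals, 8 with at least 10 counts and 7 in the 2-group fit, and falls numbered 2 in the 2-group fit. The passage difference in EMM against Serum/LIF was called for 4 members with the Wald test. The cause was not tested for any of these. Library totals moved the median of all genes by -0.12 for P20 2i/LIF against Serum/LIF.

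With 1 library left out in turn, rises and falls numbered 3 to 7 and 2 to 4 at 3 h, 1 to 3 and 12 to 19 at 9 h, 1 to 6 and 20 to 24 at 24 h, and 1 to 7 and 19 to 26 from 3 h to 24 h. For EMM against Serum/LIF they numbered 6 to 10 and 0 to 1 at P10, and 0 and 4 to 13 at P20. For EMM against 2i/LIF they numbered 19 to 37 and 0 at P10, and 0 and 19 to 25 at P20. For 2i/LIF against Serum/LIF they numbered 2 and 17 to 30 at P10, and 6 to 15 and 2 to 3 at P20. The passage differences numbered 2 to 3 falls against Serum/LIF and 32 to 49 against 2i/LIF. With a replicate block by the title numbers, the falls at 24 h remained 24 in number, the rises in P10 EMM against 2i/LIF were 29 and the passage difference was called for 41 members. Of 255 called results of single members, 151 kept their call under every alternative run.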
